A study of Drosophila melanogaster with 6 samples.

Results

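Expression of 8 genes of tracheal tubes and of the apical extracellular matrix was compared in whole brains of adult Drosophila melanogaster females: wat, pio, dpy, verm, serp, knk, kkv and btl. They are 8 of 10844 genes with a probe set of their own, and were measured by 9 of the 13966 probe sets on the array. The genes wat and pio were selected on the contrast described here, because their signal was higher on every array of ablated brains than on every control array, so their difference between the groups is given as a description with no test. The other 6 were taken as known tracheal or apical matrix genes, with earlier results of these data known.

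RNA from brains of the wild-type strain CantonS was hybridised to Affymetrix arrays, 1 per sample. The ablated group (ablated 4, 5 and 6) came from adult females fed as newly hatched larvae with hydroxyurea, an inhibitor of DNA synthesis, at 25 mg/ml in heat-inactivated yeast paste for 4 h. This treatment kills dividing neuroblasts of the mushroom bodies, the paired brain centres for olfactory learning. The control group (control 1, 2 and 3) came from untreated CantonS females, and both groups were kept on corn meal food at 25 °C. Drug and group coincide in this design, so the missing mushroom bodies and other actions of hydroxyurea cannot be told apart. Whether arrays of a group came from separate cultures is not stated, and p-values cover only the spread between arrays of a group, which may be technical. The median intensity was 13 to 14.8 on ablated arrays and 14.2 to 17.6 on control arrays, and precision is limited by there being 3 arrays a group.

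Insects breathe through tracheae, branching epithelial tubes that carry air to every organ, the brain included. The tube cells secrete chitin and large zona pellucida (ZP) domain proteins at their apical side, where these form the matrix and cuticle that line the lumen. The chitin synthase encoded by kkv makes the polymer, Knk helps to organise it, and the deacetylases encoded by serp and verm modify it and limit tube length. Pio and Dpy are ZP proteins that link the epithelium to its apical matrix. Wat is a fatty acyl-CoA reductase needed for gas filling of the tubes, and Btl is the fibroblast growth factor (FGF) receptor that guides tracheal branching. The same apical matrix genes also serve other cuticle-forming epithelia, such as the epidermis of the head.

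The signal of wat (150796_at), in the deposited MAS5 intensity units, was 315, 420 and 189 on ablated 4, 5 and 6, against 89.4, 155 and 43.1 on control 1, 2 and 3. The lowest ablated array lay above the highest control array, and ablated 5 was the highest of all. The means were 308 ± 115 in ablated brains and 95.8 ± 56.2 in control brains (SD, n = 3 each), a ratio of means of 3.22. The log2 difference was 1.76, on the scale of log2(intensity + 2.7) used throughout, which understates the change of dim probe sets.

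The signal of pio (152422_at) was 39.8, 48.9 and 20.5 on ablated 4, 5 and 6, against 11.2, 16.2 and 6.0 on control 1, 2 and 3. As for wat, the groups were apart and ablated 5 was highest and control 3 lowest. The means were 36.4 ± 14.5 in ablated brains and 11.1 ± 5.10 in control brains (SD, n = 3 each), a ratio of 3.27 and a log2 difference of 1.49. In both groups the mean of each of these genes was at or above 9.2, the mean intensity asked for testing. Of the 8381 probe sets that reached that level, 11 had a log2 difference at least as high as wat and 21 at least as high as pio, each gene itself counted.

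The step between the groups was narrow for both genes. For wat the lowest ablated value, 189, stood next to the highest control value, 155, and for pio 20.5 stood next to 16.2. Over all tested probe sets, 1.26% had every ablated array above every control array.

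**Figure D1:**
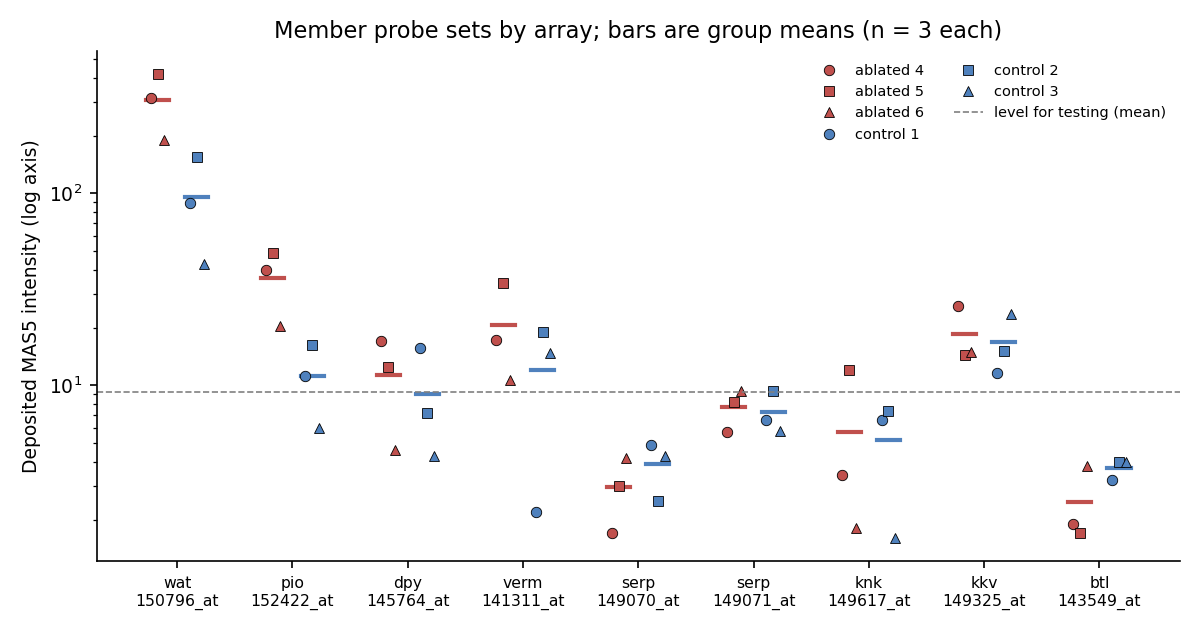
Deposited intensity (log axis) of the 9 member probe sets on each array, ablated arrays in red at the left of each pair and control arrays in blue, with bars for group means (n = 3 each) and a dashed line at 9.2, the mean level for testing. The ablated arrays of wat (189 to 420) and pio (20.5 to 48.9) lie above their control arrays, while the groups overlap for the other 7 probe sets.

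The other 6 genes did not separate the groups. Of these, 3 (dpy, verm and kkv) reached the level for testing and serp, knk and btl, with 4 probe sets, did not. limma called 0 of these 3, and 0 had an unadjusted p under 0.05. Over all 8381 tested probe sets limma called 0 higher (0.0%) and 0 lower (0.0%), with 53 higher (0.632%) and 661 lower (7.89%) at an unadjusted p under 0.05. The median log2 difference of the 3 tested genes was 0.26, against -0.17 over all tested probe sets. That median is the value of dpy, which was tested only because of its ablated arrays. It was 0.097 over all 6 genes with no filter, -0.039 without ablated 4, 0.14 without control 1 and 0.68 without ablated 6.

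Among the matrix proteins, dpy (145764_at), which encodes the giant ZP protein Dumpy, had an intensity of 17.1, 12.5 and 4.6 on ablated 4, 5 and 6, against 15.6, 7.2 and 4.3 on control 1, 2 and 3. Ablated 6 and control 3 were the 2 lowest arrays, and the groups overlapped over most of their range. The log2 difference was 0.26 (SE 0.50, limma, adjusted p = 0.851 over all tested probe sets). The control mean of dpy was 9.03, just below the level for testing.

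Of the chitin enzymes, verm (141311_at), the deacetylase Vermiform, had an intensity of 17.2, 34.1 and 10.7 on ablated 4, 5 and 6, against 2.2, 19.0 and 14.8 on control 1, 2 and 3. Ablated 5 was highest and control 1 lowest, and control 2 and 3 lay between ablated arrays. The log2 difference was 0.80 (SE 0.57, limma, adjusted p = 0.62), and it was 0.14 without control 1. The chitin synthase gene kkv (149325_at) read 26.0, 14.4 and 14.9 on ablated 4, 5 and 6, against 11.6, 15.1 and 23.6 on control 1, 2 and 3. Its highest arrays were ablated 4 and control 3, and the log2 difference was 0.12 (SE 0.32, limma, adjusted p = 0.897).

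The deacetylase Serpentine is encoded next to Vermiform in the genome, and its gene was dim on both of its probe sets. The brighter, serp 149071_at, read 5.7, 8.2 and 9.4 on ablated 4, 5 and 6, against 6.6, 9.4 and 5.8 on control 1, 2 and 3. The second, serp 149070_at, lay between 1.7 and 4.2 on ablated arrays and between 2.5 and 4.9 on control arrays. Both serp probe sets overlapped between the groups. The gene knk (149617_at) read 3.4, 12.0 and 1.8 on ablated 4, 5 and 6, against 6.6, 7.4 and 1.6 on control 1, 2 and 3. Its highest value was on ablated 5 and its lowest on control 3, as for wat, but the groups overlapped.

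The receptor gene btl (143549_at) read 1.9, 1.7 and 3.8 on ablated 4, 5 and 6, against 3.2, 4.0 and 4.0 on control 1, 2 and 3. All 6 arrays were far below 9.2, and ablated 6 lay among the control arrays. Of 11 tracheal marker genes (the 8 members with trh, rtv and Gasp), 9 had a probe set with a single gene. Of these 9, 5 reached the level for testing, and trh, the master regulator of tracheal fate, and rtv were not measured here. Gasp (153539_at), a chitin-binding protein of the tracheal lumen, read 1.7, 6.8 and 0.3 on ablated 4, 5 and 6, against 0.6, 6.7 and 0.3 on control 1, 2 and 3. The summed signal of the 9 markers was 255 to 558 in ablated and 104 to 239.9 in control brains. Of this, wat gave 189 to 420 in ablated and 43.1 to 155 in control brains. That sum separates the groups through wat and pio, which were selected for doing so. The summed signal of the 6 other members was 45.2 to 82.9 in ablated and 45.8 to 62.1 in control brains, so the groups overlapped. The tracheal label of the genes comes from their known roles. In these brains btl, Gasp, serp and knk reached at most 4.0, 6.8, 9.4 and 12.0 on any array, and dpy, kkv and verm at most 17.1, 26.0 and 34.1. The part of tracheal RNA in the difference of wat and pio was not tested. In bulk RNA, more cells of a type and more RNA per cell cannot be told apart.

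The genes wat and pio had the same order of all 6 arrays, with ablated 5 highest, then ablated 4, ablated 6, control 2, control 1 and control 3. Their log2 values correlated with Pearson's r of 0.989 over the 6 arrays, which both share. Among 7458 other single-gene probe sets tested, pio was the one most like wat and wat the one most like pio. Part of that likeness comes from the choice of both for their group difference. With each group's mean removed, which leaves only differences among arrays of 1 group, r was 0.966. By that measure pio ranked 18 among the 7458 for wat, and wat ranked 24 for pio. The other members had r with wat between -0.77 (btl) and 0.53 (verm) over the 6 arrays. With group means removed, r with wat lay between -0.52 (btl) and 0.87 (knk), and knk had an r of 0.885 with pio. The knk probe set was too dim to be tested, with 1 of the 6 arrays at or above 9.2, and its groups overlapped. How many other probe sets reach such an r was not computed for knk.

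After pio, the 4 probe sets most like wat over the 6 arrays were CG15369 (144738_at, r = 0.973), Ctr1B (149489_at, r = 0.968), a copper transporter gene, CG10311 (150008_at, r = 0.966) and CG6550 (153079_at, r = 0.964). After wat, those most like pio were CG9737 (150882_at, r = 0.977), Rpe (153656_at, r = 0.972), CG15369 (r = 0.972) and CG32369 (152839_at, r = 0.958). Thus CG15369 stood in both lists, with intensities of 17.5, 18.8 and 8.5 on ablated 4, 5 and 6, against 7.3, 9.8 and 2.8 on control 1, 2 and 3. Its groups overlapped through ablated 6 and control 2. These likenesses rest on 6 arrays, and 33 probe sets had r above 0.9 with wat and 28 with pio.

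Within each group, the mean of the tested muscle markers ordered the arrays as wat did, but single genes differed. Mlc1 (143264_at) had the order of wat in both groups. In contrast Mlc2 (143265_at), up (142555_at) and Tm2 (143427_at) were higher on ablated 6 than on ablated 4. Act88F (143061_at) read 40.3 on ablated 4 and 1.0 to 8.5 on the other arrays, and raised the mean of ablated 4. The muscle list had 9 of 12 genes measured and 5 tested, with a mean log2 value, relative to the control mean, of 0.64, 2.15 and 0.16 on ablated 4, 5 and 6, against -0.44, 1.32 and -0.88 on control 1, 2 and 3. The muscle list thus put control 2 above ablated 4 and 6, while wat did not. On the same scale wat stood at 1.87, 2.27 and 1.14 on ablated 4, 5 and 6, against 0.078, 0.85 and -0.93 on control 1, 2 and 3. Values for pio were 1.69, 1.97 and 0.82 on the ablated arrays, against 0.078, 0.52 and -0.60 on the control arrays. Of the 5 tested muscle genes limma called 0 and 0 separated the groups, and 1 was tested only because of its ablated arrays. The median log2 difference of the muscle list was 1.01 with all arrays, 0.38 without ablated 5 and 1.77 without control 2. Over all 9 measured muscle genes with no filter it was 0.75. It was 0.94 without both control 2 and ablated 5, the highest muscle arrays of each group. In that setting, chosen after the data were seen, wat differed by 1.93 and pio by 1.51.

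Markers of antennal and taste organs were highest on ablated 5, as wat was, but their order of arrays differed from that of wat. Of 14 such genes 13 were measured and 8 tested, 4 of them only because of their ablated arrays. Of the 8, 3 were higher on every ablated array than on every control array, against 1.26% of all tested probe sets. Their list mean was 0.43, 3.58 and 0.97 on ablated 4, 5 and 6, against 0.29, -0.083 and -0.21 on control 1, 2 and 3. The order was thus ablated 5, 6 and 4, then control 1, 2 and 3, and ablated 4 was next to control 1, while wat read 315 on ablated 4 and 89.4 on control 1. The median log2 difference of the list was 1.92, and 0.63 without control 2 and ablated 5. It was 1.34 over all 13 measured genes with no filter. The 4 genes that passed the filter only because of their ablated arrays enter both the list mean and the 1.92. The 3 genes without overlap were Obp19d (153423_at), at 53.5, 463.1 and 71.3 on ablated 4, 5 and 6, against 23.4 to 36.7 on control arrays, Obp56d (147516_at), at 41.6 to 280.4 on ablated and 19.3 to 29.1 on control arrays, and a10 (143652_at), at 14.3 to 44.3 and 7.4 to 12.9. They encode odorant-binding and other antennal proteins. Summed signals were 465 to 1832 in ablated and 268 to 646 in control brains for sense organ markers, and 239.6 to 1134 and 92.9 to 651 for muscle markers. The brightest sense organ gene, Obp99a (150831_at), overlapped, at 291.6 to 315.6 on ablated and 185.3 to 557.7 on control arrays. The dim gene lush (143917_at) read 0.5, 46.8 and 5.6 on ablated 4, 5 and 6, against 0.2 to 1.2 on control arrays, and Obp57c (147544_at) stayed between 0.5 and 3.2 on all arrays. Of the dim muscle genes, bt (150988_at) read 9.8 on ablated 5 and 6.3 on control 2, against 0.1 to 3.4 on the other 4, and Prm (152555_at) read 1.2 to 6.5 on ablated and 1.8 to 4.0 on control arrays. The part of muscle and sense organ RNA in the difference of wat and pio was not tested.

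Markers of other tissues that a dissected brain can carry, and of the glia of the brain itself, did not order the arrays as wat did. The part of RNA from these tissues and from glia in the difference of wat and pio was not tested. Photoreceptor markers (7 of 14 measured, 7 tested) had their highest list mean, 1.35, on control 1 and their lowest, -1.42, on control 3, with summed signals of 388 to 1376 in ablated and 122 to 1812 in control brains. Fat body markers (9 of 10 measured) also peaked on control 1, with sums of 16418 to 20658 in ablated and 11877 to 26569 in control brains, most of it from the yolk protein genes Yp1, Yp2 and Yp3. Hemocyte markers (10 of 11 measured, 9 tested) had overlapping sums of 920.3 to 1043 in ablated and 921 to 1024 in control brains. Of the 9, 2 were lower and 0 higher on every ablated array than on every control array. Over all tested probe sets, 14.8% were lower and 1.26% higher in that way. Glial markers (8 of 9 measured) had sums of 1939 to 2529 in ablated and 2373 to 2835 in control brains, and repo, the glial master gene, read 74.2 to 141 in ablated and 119 to 144 in control brains.

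**Figure D2:**
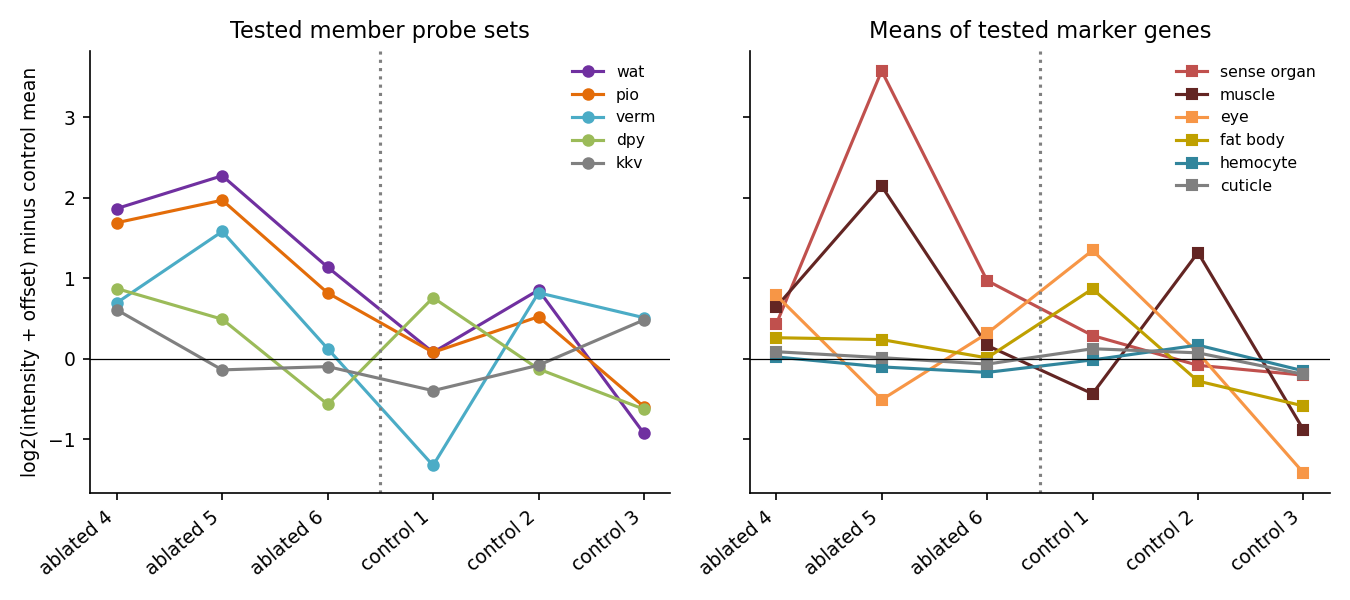
Value of each array minus the control mean on the log2(intensity + 2.7) scale, for the 5 tested members (left) and for the means of tested marker genes of other tissues (right), with ablated arrays left of control arrays. wat and pio rise and fall together and peak on ablated 5 (2.27 and 1.97), where the sense organ (3.58) and muscle (2.15) means also peak.

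Among the fatty acyl-CoA reductases, the enzyme family of wat, 15 of 17 genes were measured. Besides wat, 5 were tested, and limma called 0 of these 5 in either direction. Their median log2 difference was 0.30, against -0.17 over all tested probe sets. It was -0.005 without control 2, against -0.20 over all tested probe sets in that setting. Without ablated 4 it was 0.76, against -0.18. The reductase gene CG8306 (142796_at) read 123, 121 and 36.2 on ablated 4, 5 and 6, against 20.1, 87.9 and 11.7 on control 1, 2 and 3. Its 2 highest arrays were ablated 4 and 5, but control 2 lay above ablated 6. The log2 difference was 1.45 (SE 0.65, limma, adjusted p = 0.554).

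The reductase gene CG5065 (147321_at) read 79.7, 150 and 90.9 on ablated 4, 5 and 6, against 56.4, 122 and 45.4 on control 1, 2 and 3. It peaked on ablated 5, as wat did, and among controls on control 2, which lay above ablated 4 and 6. The log2 difference was 0.58 (SE 0.36, limma, adjusted p = 0.58). In contrast CG4020 (144560_at) read 26.0, 24.4 and 26.1 on ablated 4, 5 and 6, against 40, 33.6 and 32.7 on control 1, 2 and 3. These groups did not overlap, with a log2 difference of -0.43 (limma, adjusted p = 0.554), and 14.8% of all tested probe sets likewise had the ablated arrays below the control arrays without overlap. Of the 15 measured genes, 7 stayed below 9.2 on every array, among them FarO, a reductase of the oenocytes. CG8306, CG5065 and CG4020 were named after their values were seen.

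Of the ZP and other apical matrix genes 13 of 17 were measured, and 4 reached the level for testing, pio, dpy, mey and cyr. Of dpy, mey and cyr limma called 0, and their median log2 difference was -0.068, or 0.11 without ablated 6 and 0.016 without control 2. The ZP gene mey (142808_at) differed by -0.16 and cyr (144678_at) by -0.068, with overlapping groups. Papillote, encoded by pot (152280_at), is a ZP protein that works with Pio and Dpy in attaching wing epithelia to the cuticle. It read 7.2, 14.4 and 7.8 on ablated 4, 5 and 6, against 3.4, 6.2 and 2.9 on control 1, 2 and 3. Every ablated array was above every control array, with ablated 5 highest and control 3 lowest, as for pio, but the mean was below 9.2 and pot was not tested.

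The ZP gene qsm (147554_at), known from light responses of clock neurons, read 7.8, 9.4 and 4.4 on ablated 4, 5 and 6, against 3.1, 1.4 and 3.6 on control 1, 2 and 3. It also did not overlap, and it was not tested for the same reason. In dyl (148167_at), a ZP gene of wing and bristle shape, the order was the opposite, with 3.6 to 4.4 on ablated and 4.7 to 14.1 on control arrays. Over all 13966 probe sets without a filter, 2.3% had every ablated array above and 11.1% every ablated array below every control array. The genes pot, qsm and dyl were named after their values were seen.

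Of the genes for making, organising, deacetylating and degrading chitin, 20 of 21 were measured and 13 tested. limma called 0 in either direction, 0 separated the groups, and the median log2 difference was -0.030. The smallest p values belonged to the chitin deacetylase genes Cda4 (145492_at), at -0.82 (SE 0.415, adjusted p = 0.555), and Cda5 (145504_at), at -0.67 (SE 0.36, limma, adjusted p = 0.568). Cda4 read 5.3, 25.7 and 17.7 on ablated 4, 5 and 6, against 23.5, 29.4 and 27.7 on control 1, 2 and 3, with ablated 5 between control arrays. Another deacetylase gene, Cda9 (147352_at), read 60.1 on ablated 4 and between 2.6 and 6.9 on the other 5 arrays, and reached the level for testing through ablated 4 alone. The chitinase gene Cht2 (154429_at) and mmy (154277_at), which makes the sugar precursor of chitin, were bright, at 49.0 to 73.3 and 186 to 259 on ablated arrays, against 55.3 to 58.0 and 195 to 349 on control arrays. Those ranges overlapped for both.

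The chitin-binding obstructor gene obst-E (151477_at) had a pattern of another kind, with 14.6, 59.6 and 8.9 on ablated 4, 5 and 6, against 4.7, 55.6 and 1.4 on control 1, 2 and 3. Its dimmer probe set (142136_at) was also highest on control 2 (36.1) and ablated 5 (35.5). The cuticle protein genes Cpr49Ae (141213_at) and Cpr67B (152457_at) had the same 2 highest arrays, at 125 and 168 on ablated 5, against 73.9 and 136 on control 2. The next highest array of Cpr49Ae read 16 and that of Cpr67B read 48.4, both on ablated 6. A muscle gene, Mlc2 (143265_at), which encodes a myosin light chain, had 779 on ablated 5, against 449.7 on control 2, and no more than 159 elsewhere. The values of wat on ablated 4 (315) and control 2 (155) stood in the opposite order to these genes. obst-E, Cda9, Cpr49Ae and Cpr67B were named after their values were seen.

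**Figure D3:**
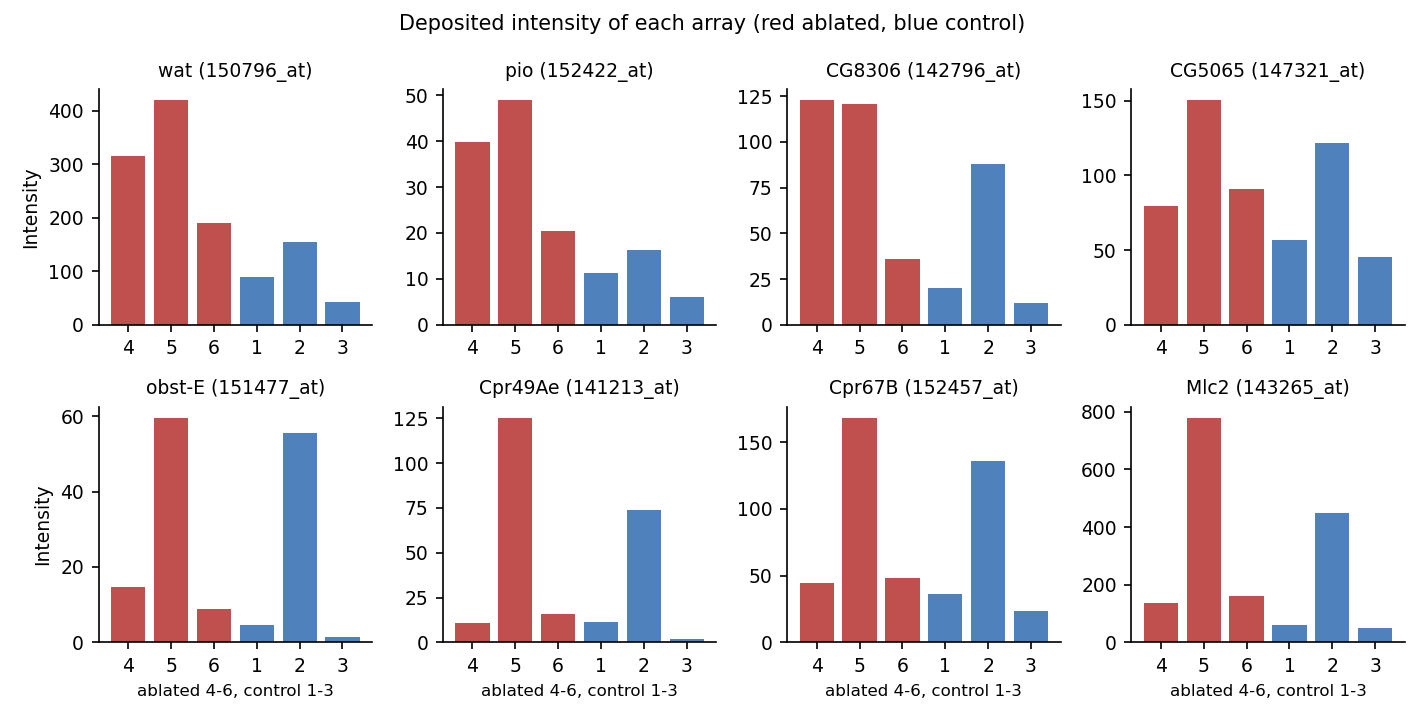
Deposited intensity of 8 probe sets on each array, with ablated 4, 5 and 6 in red left of control 1, 2 and 3 in blue, each panel on its own linear axis from 0. All 8 are high on ablated 5 and, among controls, highest on control 2, but wat and pio have control 2 below each ablated array. In contrast, CG5065, obst-E, Cpr49Ae, Cpr67B and Mlc2 have it above ablated 4 and 6, and CG8306 above ablated 6 only.

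Structural cuticle proteins and tanning enzymes mark the epidermis and head cuticle. Of 119 genes 89 were measured and 39 tested, 34 stayed below 9.2 on every array, and limma called 0. The median log2 difference was -0.007, against -0.17 over all tested probe sets, and 26 of the 39 genes lay above that value. Under 3 scalings of the arrays the cuticle median was 0.13 to 0.15. Without overlap, 1 gene was higher and 2 were lower, against 1.26% higher and 14.8% lower over all tested probe sets. The cuticle gene TwdlF (153953_at) read 18.9, 10.4 and 11.6 on ablated 4, 5 and 6, against 6.4, 10.1 and 4.5 on control 1, 2 and 3, a log2 difference of 0.76 (SE 0.38, limma, adjusted p = 0.555), and its control mean of 7.0 was below the level for testing. Cpr92A (150203_at) differed by -0.69 (SE 0.23, limma, adjusted p = 0.554), with 12.2 to 20.2 on ablated and 25.7 to 29.9 on control arrays. Summed signals of the cuticle list were 1195 to 1634.5 in ablated and 1142 to 1474 in control brains, so the groups overlapped.

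Of the FGF and branching genes 10 of 13 were measured and 6 tested, with a median log2 difference of -0.14 and 0 called by limma. The ligand gene of Btl, bnl (152205_at), was also dim, at 0.6 to 4.0 on ablated and 1.4 to 1.7 on control arrays. The feedback inhibitor gene sty (143757_at) was bright and level, at 113 to 120 on ablated and 104 to 131 on control arrays, with a log2 difference of 0.016 (SE 0.158). The smallest p values were those of Hs6st (150236_at), a heparan sulfate sulfotransferase gene, at -0.38 (SE 0.25, limma, adjusted p = 0.596), and htl (154602_at), the other FGF receptor gene of the fly, at -0.31 (SE 0.255, limma, adjusted p = 0.655). The signal of htl, at 13.5 to 23.1 on ablated and 19.6 to 25.8 on control arrays, overlapped. Other tested probe sets of Hs6st went the other way, 142534_at at 0.17 and 150232_at at 0.24.

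Of the genes for transcription factors of tracheal development and for the hypoxia response, 10 of 11 were measured. The 3 tested were tgo, vvl and Hph, of which Hph encodes an enzyme. The 5 genes grh, salm, rib, esg and sima stayed below 9.2 on every array. limma called 0, and the median log2 difference was -0.31, or -0.16 to -0.17 under 3 scalings of the arrays. It was -0.073 without control 1, -0.10 without ablated 6, -0.51 without ablated 4 and -0.54 without control 2. Hph (152918_at), the prolyl hydroxylase that marks the hypoxia factor Sima for degradation, read 37.5, 24.7 and 43.0 on ablated 4, 5 and 6, against 64.0, 44.1 and 48.7 on control 1, 2 and 3. Every ablated array was below every control array, as for 14.8% of all tested probe sets. The log2 difference was -0.56 (SE 0.24, limma, adjusted p = 0.554), and a second tested probe set (149319_at) stood at -0.34. Another Hph probe set (149317_at), too dim to be tested, overlapped between the groups. The POU factor gene vvl (143409_at) differed by -0.31 with overlapping groups, and tgo (154596_at), the general partner of bHLH-PAS factors, by -0.040.

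**Figure D4:**
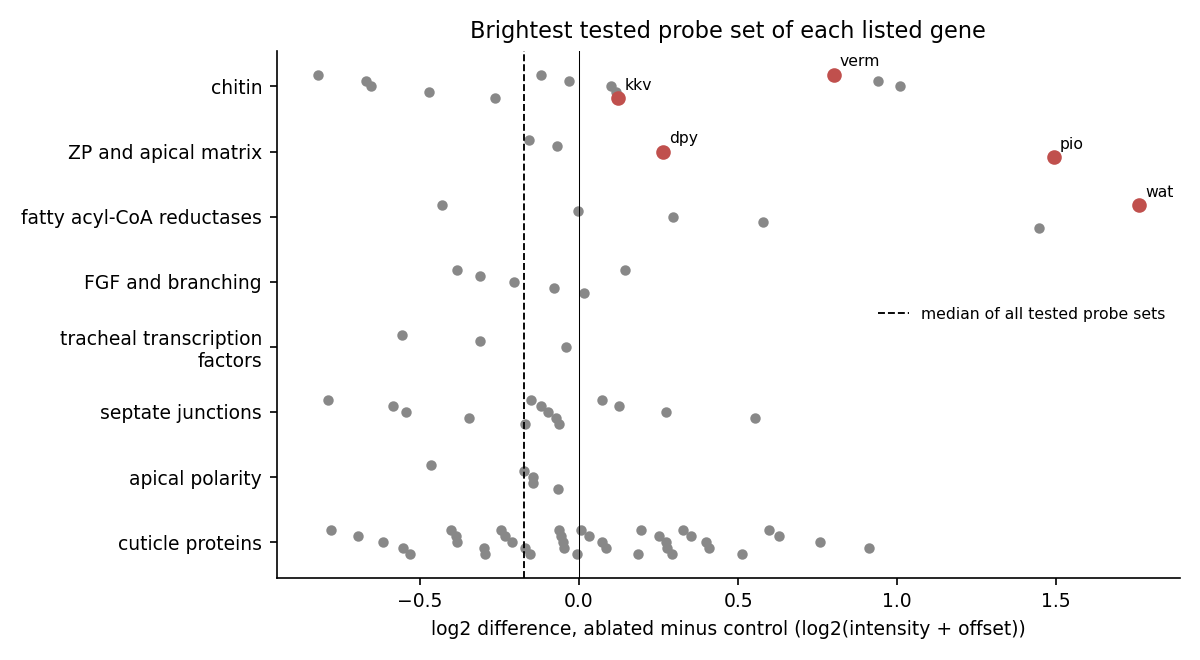
log2 difference between ablated and control brains for each gene in 8 lists, taken from its brightest tested probe set, with members in red and the dashed line at -0.17, the median of all tested probe sets. The members pio (1.49) and wat (1.76) lie at the right of their lists, next to CG8306 at 1.45, while the chitin, FGF and cuticle lists spread to both sides of the line.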

How the data were processed

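Each of 6 arrays had 1 intensity per probe set on a linear scale, made with MAS5 by the authors, per the submitters' processing notes. No source used here states its settings or scaling target. Of 14010 probe sets, 44 Affymetrix controls were left out. Of the other 13966, 12443 had 1 gene in the platform annotation, 327 several and 1196 none, and symbols were updated for 12394 through the gene identifier in the RefSeq gene table (Release 6 plus ISO1 MT), used only for names and neighbours. Values were taken as log2(intensity + 2.7), the 20th percentile, with no scaling between arrays. The 8381 probe sets with a mean of at least 9.2, the 40th percentile, were tested with limma 3.58.1 in R 4.3.3 (intensity trend, no covariates, two-sided), adjusted by Benjamini-Hochberg over all of them at 0.05. The procedure was tested on simulated data. No 2 arrays shared more than 1.52% identical values. Genes and lists were chosen with earlier results of these data known. All members were named, and of each pathway list the genes at least 1.5-fold apart without overlap or, failing that, the 2 with the smallest p. Marker lists of other tissues are given by counts and summed signals, with some markers at or near 0 and the brightest named for muscle and sense organs. The genes repo, Obp19d, Obp56d, a10, Mlc1, up, Tm2 and Act88F were named after their values were seen. Each gene of a list counts by its brightest tested probe set, and summed signals by its brightest measured one. Alternatives covered array scaling, offset, filter, variance model and arrays left out.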

Additional observations from a re-analysis of the deposited data

How the results depend on the processing

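Under all alternatives run, limma called 0 probe sets over the whole table and 0 of the tested members other than wat and pio. These were median centring, quantile normalization and cyclic loess, offsets of 1 and 16, no filter, no intensity trend and each array left out. The log2 difference of wat was 1.91 to 1.97 under the 3 scalings and 1.29 (without control 3) to 2.19 (without control 2) with 1 array left out. That of pio was 1.63 to 1.65 and 1.19 to 1.83 in the same cases, and 0.93 with an offset of 16. With 1 array left out, verm ranged from 0.14 to 1.21, dpy from -0.050 to 0.68 and kkv from -0.12 to 0.36. The sign of dpy and kkv thus turned in the deposited values. Relative to the median of all tested probe sets in the same cases, dpy ranged from 0.14 to 0.89 and kkv from 0.03 to 0.58, both above 0. The median of the tested members other than wat and pio ranged from -0.039 to 0.68 with 1 array left out. The median of all tested probe sets was -0.17 in the deposited values and 0.0038 after cyclic loess, and the medians of the chitin, FGF, septate junction, cuticle and ZP (without pio) lists, below 0 in the deposited values, then lay above 0. With 1 array left out, the cuticle median ranged from -0.053 to 0.085, that of septate junction genes from -0.20 to 0.033, of chitin genes from -0.13 to -0.025 and of FGF genes from -0.19 to -0.079. No paired analysis was possible because the groups share no replicate number. The intensities carry no detection calls here, so dim values have no stated limit of detection.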

Other observations

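Septate junction genes, which seal the tracheal epithelium and also the glia of the blood-brain barrier, were measured for 16 of 17 genes and tested for 14. limma called 0, and 2 had the ablated arrays below the control arrays without overlap, as had 14.8% of all tested probe sets. These were Nrx-IV (142283_at), a neurexin, with 29.5, 18.2 and 38.0 on ablated 4, 5 and 6, against 54.5, 43.2 and 51.0 on control 1, 2 and 3, and the claudin gene kune (146649_at). Nrx-IV differed by -0.79 (SE 0.26, limma, adjusted p = 0.554) and kune by -0.59 (SE 0.24, limma, adjusted p = 0.554). The claudin gene sinu (142910_at), needed for tracheal tube size, read 14.9, 21.1 and 9.0 on ablated 4, 5 and 6, against 22.9, 4.6 and 5.6 on control 1, 2 and 3, with overlapping groups. Apical polarity genes were tested for 5 of 7 measured genes, with 0 called and a median of -0.15. The lowest p was that of sdt (144688_at), at -0.47 (SE 0.20, limma, adjusted p = 0.554). Other tested probe sets of sdt, 144689_at (-0.293), 144692_at (-0.173) and 144693_at (-0.205), overlapped between the groups. Next came Patj (154084_s_at), a partner of Crb and Sdt in the apical complex, at -0.17 with overlapping groups. The apical determinant gene crb (153779_at) read 8.4 to 11.6 on ablated and 9.3 to 11.7 on control arrays.

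The genes next to wat and pio along the chromosome had overlapping groups. Beside wat, DIP-gamma (152164_at) read 54.9 to 82.9 on ablated and 71.8 to 92.7 on control arrays, and CG14518 (150797_at) was dim, at 0.7 to 1.9 and 1.4 to 3.7. Beside pio, CG4681 (147872_at) read 9.9 to 13.4 on ablated and 12.1 to 16.9 on control arrays. On its other side CG13587 (147873_at) read 0.4, 8.2 and 0.9 on ablated 4, 5 and 6, against 0.7 to 1.4 on control arrays.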
